A study of Homo sapiens with 4 samples.

Results

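The 9 CHD chromatin remodeller genes, CHD1 to CHD9, were examined among 19974 protein-coding genes on chromosomes 1 to 22 and X. The genes were listed by name, and each locus took the RefSeq gene body with 20 kb on each side. The family was selected on measured values in 1 respect, that the CHD1 start site carries 1 of the highest PPARα peaks of the series. The values at CHD1 are therefore a description of what chose it. The loci held 16 of 9819 PPARα peaks and 57 of 45988 PML/RARA peaks.

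The peaks come from CUT&Tag, a method in which a transposase tethered to a bound antibody inserts sequencing adapters into nearby DNA. The cells were NB4, a human acute promyelocytic leukemia line that expresses the PML/RARA fusion protein. There were 4 libraries, 1 each for an antibody to PPARα and an antibody to PML/RARA, and 2 with control IgG, paired by name to those antibodies. The labels mark the antibody libraries as treatment and the IgG libraries as control, and give no drug, dose or time. Each antibody has 1 peak list and no replicate, so no difference was tested against a spread between libraries, and the IgG libraries gave no peak list here. Read depth is unknown, no source used here gives which part of the fusion its antibody sees, and a fold in one list cannot be set against a fold in the other.

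CHD proteins are helicase-like ATPases that move, space or eject nucleosomes, and they share a pair of chromodomains before the ATPase. CHD1 and CHD2 act at transcribed genes, CHD3, CHD4 and CHD5 are the Mi-2 type ATPases of the NuRD deacetylase complex, and CHD6 to CHD9 form a subfamily with BRK domains. PPARα is a nuclear receptor that binds DNA with RXR and is activated by fatty acids. PML/RARA joins PML to the retinoic acid receptor alpha and blocks promyelocyte differentiation. CHD9 was also described as a cofactor that interacts with PPARα.

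The promoter sequences show the DNA at the start sites, which the peaks cover in full, in part or not at all. The RefSeq promoter table (GRCh38.p14, the assembly of hg38) matched 6 of the 9 genes with 9 windows, each running from 250 bases before a start site to 50 bases after it. CHD5, CHD6 and CHD7 have no window printed or searched. Shown are the CHD1 window under the highest PPARα peak (chr5:98928958-98929257, minus strand), the CHD2 window (chr15:92900074-92900373, plus), the CHD8 window (chr14:21437226-21437525, minus), the second CHD9 window (chr16:53130762-53131061, plus) and, for contrast, the CHD4 window under a PML/RARA peak alone (chr12:6606402-6606701, minus). They are written 5′ to 3′ on the gene's strand, with capitals at every match, on either strand, to the GC box, the CCAAT box and the other motifs whose letters are given after them.
CHD1: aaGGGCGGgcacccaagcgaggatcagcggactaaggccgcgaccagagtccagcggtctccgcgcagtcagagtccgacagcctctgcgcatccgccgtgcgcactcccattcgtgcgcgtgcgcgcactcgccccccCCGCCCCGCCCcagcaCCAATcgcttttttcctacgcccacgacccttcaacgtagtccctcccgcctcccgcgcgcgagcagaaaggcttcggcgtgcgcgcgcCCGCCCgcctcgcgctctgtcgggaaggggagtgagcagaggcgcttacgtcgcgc
CHD2: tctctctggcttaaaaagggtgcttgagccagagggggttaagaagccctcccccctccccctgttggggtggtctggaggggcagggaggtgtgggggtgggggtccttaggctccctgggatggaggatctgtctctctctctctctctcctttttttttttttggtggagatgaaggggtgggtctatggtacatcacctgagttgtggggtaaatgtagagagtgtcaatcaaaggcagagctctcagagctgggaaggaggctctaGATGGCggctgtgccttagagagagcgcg
CHD8: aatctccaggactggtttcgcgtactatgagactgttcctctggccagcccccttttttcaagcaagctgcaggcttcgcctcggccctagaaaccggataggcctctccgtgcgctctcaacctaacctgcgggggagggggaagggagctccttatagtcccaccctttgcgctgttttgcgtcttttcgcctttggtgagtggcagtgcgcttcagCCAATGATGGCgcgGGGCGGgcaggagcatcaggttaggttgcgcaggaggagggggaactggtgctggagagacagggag
CHD9: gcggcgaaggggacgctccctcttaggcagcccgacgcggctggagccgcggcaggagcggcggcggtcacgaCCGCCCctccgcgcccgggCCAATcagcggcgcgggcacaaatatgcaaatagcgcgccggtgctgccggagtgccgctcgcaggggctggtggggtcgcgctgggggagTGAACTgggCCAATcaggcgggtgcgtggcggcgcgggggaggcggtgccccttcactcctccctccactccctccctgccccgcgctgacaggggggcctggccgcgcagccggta
CHD4: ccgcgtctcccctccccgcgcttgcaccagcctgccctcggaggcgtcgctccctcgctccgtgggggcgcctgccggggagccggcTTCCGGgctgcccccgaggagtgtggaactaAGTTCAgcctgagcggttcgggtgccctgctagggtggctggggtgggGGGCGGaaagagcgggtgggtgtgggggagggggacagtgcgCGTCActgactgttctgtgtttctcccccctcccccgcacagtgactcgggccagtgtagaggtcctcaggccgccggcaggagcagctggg

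Of the 9 windows, 6 overlapped a PPARα peak, 7 a PML/RARA peak and 5 both. CHD9 supplied 4 of the windows, and 1 PPARα peak overlapped its windows 3 and 4. Counts of windows are therefore not counts of separate genes or peaks. The CHD1 window held 4 GC boxes and 1 CCAAT box, and the pair of GC boxes from 111 to 101 bases before the start site share 1 base. The window had a GC content of 70.7% and 44 CpG dinucleotides, against medians of 58.7% and 14 over all 34961 promoter windows and 65.3% and 27 over the 7327 windows with a PPARα peak. The second CHD9 window had a GC content of 75.3% with 38 CpG, the CHD8 window lay at 59.7% with 16 CpG, and the CHD2 window at 56.0% with 3 CpG. CHD2 and CHD1 thus carried peaks of both antibodies at their start sites over windows of very different base composition.

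No CHD window held the nuclear receptor half-site AGGTCA, which occurs in 13.8% of all windows and in 9.29% of windows with a PPARα peak. Nor did any hold a direct repeat, with up to 5 bases between, of half-sites taken from AGGTCA or GGGTCA or AGTTCA or GGTTCA, a pattern found in 0.566% of all windows. Single half-sites of that set were in 4 of 9 CHD windows (38.6% of all windows), at CHD3, CHD4 and CHD9. The GC box GGGCGG was in 5 of 9 (45.0% of all, 74.3% with a PPARα peak). The CCAAT box was in 4 of 9 (34.6% of all), and the YY1 core GATGGC in 4 of 9 (12.9% of all), at CHD2, CHD3, CHD8 and CHD9. The ETS core CCGGAA was found at CHD4 alone (17.3% of all windows), the CRE core TGACG at CHD4 and CHD9 (24.5%), and the E-box CACGTG at CHD9 alone (7.27%). At CHD8 the CCAAT box and the YY1 core adjoin, from 31 to 21 bases before the start site, and in the first CHD9 window a GC box and the E-box share 1 base. All motifs were read on both strands of windows of the same length, and a match describes letters only. PPARα summits at CHD1, CHD3 and CHD8 lay 389, 777 and 264 bases before the start site, outside these windows. The summit near CHD9 start sites 3 and 4 also lay outside, so the DNA at those summits was not searched.

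Across the family, PPARα peaks lay within 1 kb of an annotated gene end at 4 of 9 genes, CHD1, CHD2, CHD6 and CHD8, where 32.3% of all protein-coding genes had one. With CHD1 left out the count was 3 of 8, and with peaks of −log10 q of at least 5 it was 2 of 9, CHD1 and CHD8, for PPARα and for both antibodies. PML/RARA peaks lay at the ends of 8 of 9 genes (57.8% of all genes), every member but CHD5, and at 3 of 9 (CHD1, CHD6 and CHD8) when that list was cut by q to as many peaks as the PPARα list. The shares of all genes under that q threshold and that cut are not given here, so these stricter counts stand without a background. Peaks of both were at the same 4 genes as PPARα (31.9% of all genes). In the wider loci, PPARα peaks were found at 7 of 9 genes (53.5% of all), PML/RARA peaks at 9 of 9 (78.9%) and both at 7 of 9 (52.9%). CHD genes are long, with a median of 78.5 kb and a range from 28.0 kb at CHD3 to 272.5 kb at CHD9, against a median of 24.2 kb over all genes. A longer locus has more room for a peak, and the part of length in these counts was not tested.

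**Figure D1:**
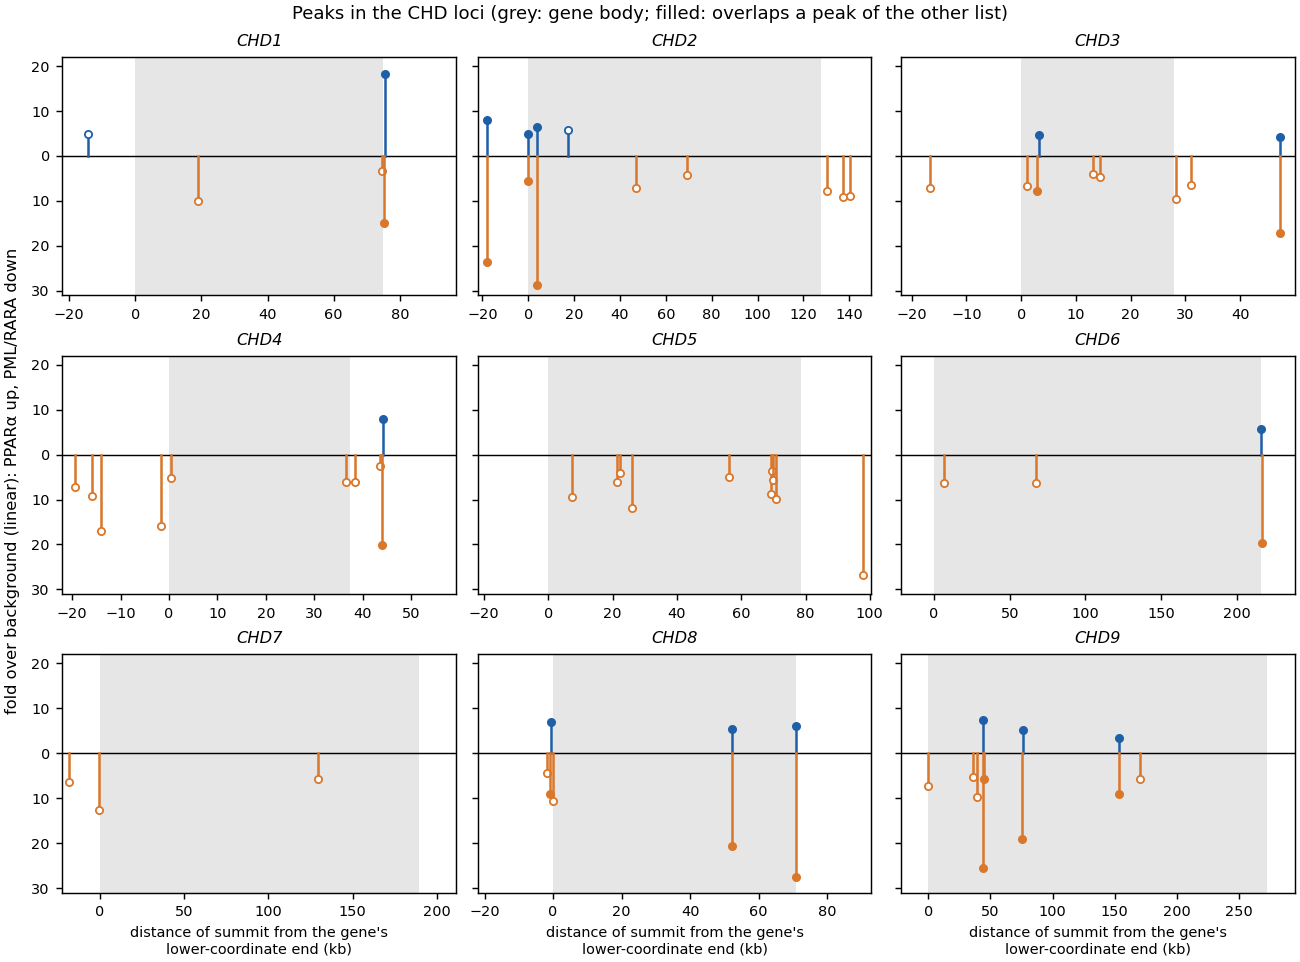
Peaks in the 9 CHD loci. The horizontal axis is the distance of each summit from the gene's lower-coordinate end in kb, grey marks the gene body, blue lines upward give the fold of PPARα peaks and orange lines downward that of PML/RARA peaks (linear fold over background, not on a common scale between lists). Filled circles overlap a peak of the other list, as 14 of 16 PPARα and 15 of 57 PML/RARA peaks do.

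Counting by start sites gave a larger PPARα share than counting by gene ends. Of the 6 members with an annotated start site in the promoter table, 5 had a PPARα peak within 1 kb of one (CHD1, CHD2, CHD3, CHD8 and CHD9), where 35.1% of the 15812 protein-coding genes in that table did. Of the same 6 genes, 3 had a PPARα end peak. All 6 had a PML/RARA peak at a start site (59.7% of those genes), and all 6 had one at a gene end. CHD3 and CHD9 enter this count and not the gene-end count because their PPARα peaks lie at starts inside the annotated gene.

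**Figure D2:**
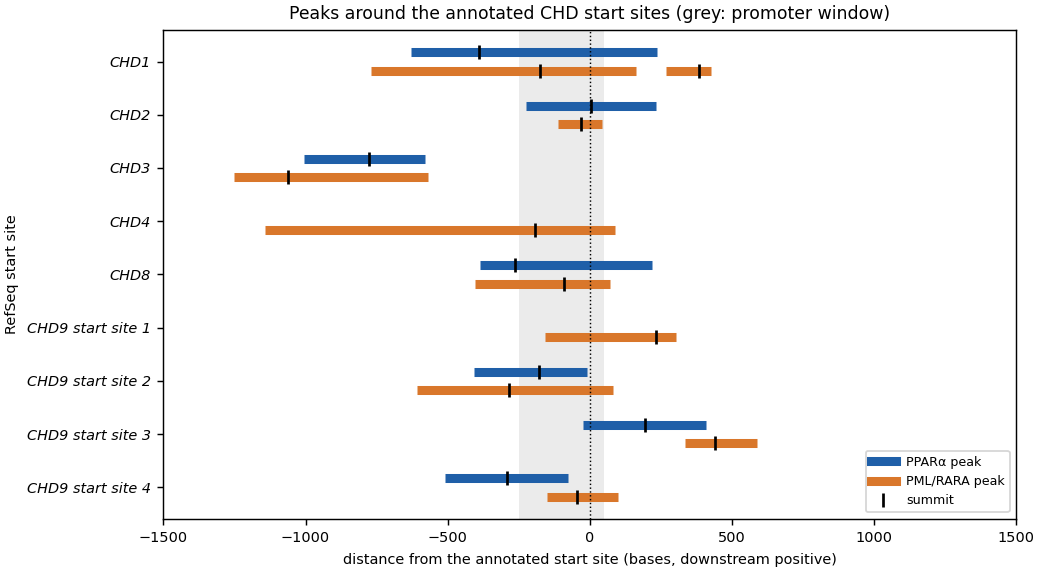
PPARα (blue) and PML/RARA (orange) peaks around the 9 annotated start sites of 6 CHD genes. The horizontal axis is the distance from the start site in bases, downstream positive, bars span the called peaks, black ticks are summits and grey marks the promoter window. CHD4 and the first CHD9 start site have a PML/RARA peak and no PPARα peak.

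The PPARα peaks of the family were of ordinary height apart from CHD1. Their folds over background, the authors' values, ran from 3.44 at CHD9 to 18.3 at CHD1 with a median of 5.77, against a median of 6.26 over the whole list. Of the 16 peaks, 6 reached the list's median fold, and 1, at CHD1, was in its top 10%. The median −log10 q was 5.02, against 6.33 over the list, and the median width 447 bases, against 503.

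PML/RARA peaks of the family ran from a fold of 2.54 near CHD4 to 28.7 inside CHD2, with a median of 7.68 (list median 7.41). Of the 57 peaks, 29 reached the list's median fold, and 9 were in the top 10% of the list by fold. Of those 9, 8 overlapped a PPARα peak, and the ninth was the peak at an end of RPL22 in the CHD5 flank. PPARα overlapped 13 of the 29 peaks at or above the median fold and 2 of the 28 below it. The whole list had the same lean, with PPARα at 36.3% of its peaks at or above the median fold, 6.51% of those below it and 63.6% of the top 10%.

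**Figure D3:**
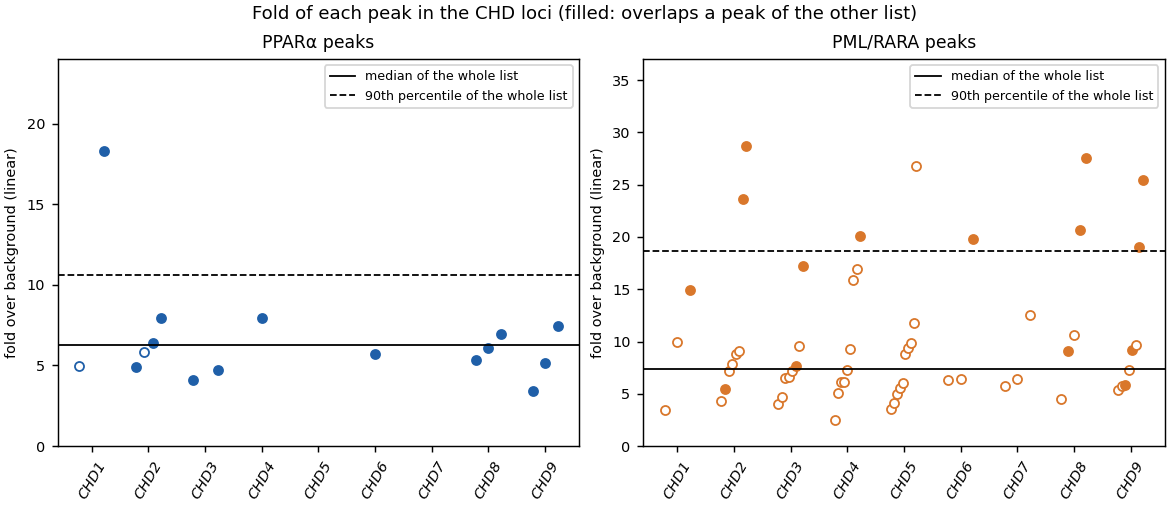
Fold over background (linear axis) of each PPARα peak (left) and PML/RARA peak (right) in the locus of each CHD gene. Filled points overlap a peak of the other list, and the lines give the median (6.26 and 7.41) and 90th percentile (10.6 and 18.6) of each whole list. CHD1 holds the 1 PPARα point above the 90th percentile.

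PPARα and PML/RARA peaks coincided in these loci at shares near those of the whole lists. Of the 16 PPARα peaks, 14 overlapped the PML/RARA list by 1 base or more (87.5%, exact Clopper-Pearson 95% interval 61.7 to 98.4), against 90.1% of all PPARα peaks. Of the 57 PML/RARA peaks, 15 overlapped PPARα (26.3%, 15.5 to 39.7), against 21.4% of all. The intervals cover counting error over peaks only. Summits of overlapping peaks lay from 8 to 283 bases apart for PPARα peaks, with a median of 137.5, and 9 of the 14 were within 200 bases. Over all overlapping PPARα peaks the median was 166 and 61.6% were within 200 bases. The pairs farther apart than that were those at the start sites of CHD1 (214) and CHD3 (283), at CHD6 (282), and 2 in CHD9 (266 and 248), and under a rule of 200 bases between summits none of these would count as shared. The 2 PPARα peaks alone were 14.1 kb beyond the distal end of CHD1 (fold 4.95) and inside CHD2 (fold 5.82).

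CHD1, which encodes a remodeller that reads H3K4 methylation at active genes, spans chromosome 5 from 98853985 to 98929007 on the minus strand. Its start-site PPARα peak ran from 98928771 to 98929637, 867 bases, at a fold of 18.3 (−log10 q 88.7). That placed it 16th of 9819 by −log10 q and among the top 0.224% by fold. The overlapping PML/RARA peak (98928846 to 98929777) had a fold of 14.9 (−log10 q 92.5), in the top 17.8% of its list. They shared 792 bases, and their summits were 214 bases apart, at 389 bases before the start site for PPARα and 175 bases before it for PML/RARA. Both peaks covered the whole promoter window printed above and overlapped the bodies of the noncoding genes CHD1-DT, the divergent transcript, and LOC100289230. The lists cannot assign them to 1 of these genes.

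A weak PML/RARA peak (fold 3.41, −log10 q 5.42) lay downstream, with its summit 386 bases after the start site, and the last of the 3 PML/RARA peaks (fold 9.996) was 56128 bases into the gene. The nearest PPARα peak outside the CHD1 locus was 1396 kb from the gene. Apart from the start site, the CHD1 locus thus held 1 PPARα peak and 1 PML/RARA peak, which did not overlap.

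CHD1 ranked 16th by fold among the 6448 protein-coding genes with a PPARα end peak, and 5373rd among 11553 for PML/RARA. Of 6371 other genes with end peaks in both lists, the 3 whose folds were closest to those of CHD1 were USP16, a histone H2A deubiquitinase gene (PPARα 17.2, PML/RARA 14.1), and the neighbours TMEM53 and ARMH1, which share their peaks (16.7 and 15.7). Their distances from CHD1 were 0.12, 0.15 and 0.15 on the log2 scale. This likeness rests on 2 values per gene.

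CHD2, a remodeller linked to deposition of the histone variant H3.3, spans chromosome 15 from 92900324 to 93027996 on the plus strand, with 4 PPARα and 8 PML/RARA peaks in its locus. At the annotated start site both antibodies had low peaks, with a PPARα fold of 4.88 (92900100 to 92900558) and a PML/RARA fold of 5.48 (92900213 to 92900367). Their summits were 3 bases after and 31 bases before the start site. Among genes with end peaks, CHD2 stood 5568th of 6448 for PPARα and 10634th of 11553 for PML/RARA.

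The high peaks of the CHD2 locus flanked that start site. Upstream, at the lower-coordinate end of CHASERR, a noncoding gene known to restrain CHD2 expression in cis, the PPARα fold was 7.96 (92882133 to 92882772) and the PML/RARA fold 23.6 (92882296 to 92882899). Inside the gene, 3914 bases after the start site for PPARα and 4017 for PML/RARA, the folds were 6.40 (92903973 to 92904479) and 28.7 (92904142 to 92904603). The second was the highest PML/RARA peak of the family, in the top 0.863% of the list by fold. Both of these peaks cover MIR3175, whose hairpin lies at 92904399 to 92904475. Its mature miRNA (RefSeq GRCh38.p14, chr15:92904408-92904429, plus strand) is printed to show the short RNA encoded under that peak, with the seed in capitals.
hsa-miR-3175: cGGGGAGAgaacgcagugacgu

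The other CHD2 peaks stood alone. They were a PPARα peak 17484 bases into the gene (fold 5.82), PML/RARA peaks of folds 7.14 and 4.28 farther inside, and 3 PML/RARA peaks beyond the far end (7.84, 9.09 and 8.84). The last 2 of these fall inside RGMA, a neighbouring axon guidance gene.

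CHD3, CHD4 and CHD5 encode the Mi-2 ATPases of NuRD, which couples nucleosome remodelling to histone deacetylation. None of the 3 had a PPARα peak at a gene end, and their bodies together held 1 PPARα peak and 15 PML/RARA peaks over 143.8 kb. That is 0.695 PPARα and 10.4 PML/RARA peaks per 100 kb. CHD1 and CHD2 had 1.97 and 3.45 per 100 kb, CHD6 to CHD9 had 0.801 and 2.003, and all protein-coding gene bodies pooled had 0.615 and 2.52. PML/RARA peaks were thus densest at the Mi-2 genes, with 14.3 per 100 kb in CHD3, 5.36 in CHD4 and 11.5 in CHD5, against 4.23 in CHD8. The CHD3 and CHD4 values rest on 4 and 2 peaks in short genes. The PPARα density of the 3 genes together was near the pooled value but rests on 1 peak, in CHD3.

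CHD3 (chromosome 17, 7884796 to 7912755) carried PPARα at a fold of 4.72 from 7887784 to 7888209 (−log10 q 3.13). The summit lay 777 bases before the annotated start site at 7888789. That peak lay wholly within one of PML/RARA with a fold of 7.68 (7887539 to 7888219). Neither reached the 300-base promoter window. A further PML/RARA peak (fold 6.58) lay near the lower-coordinate end, also within 1 kb of an end of NAA38, a gene for an N-terminal acetyltransferase subunit, and 2 weak ones (3.98 and 4.67) lay deeper inside the gene.

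The flanks of CHD3 held further peaks, most of them at neighbours. A PML/RARA peak inside NAA38 had a fold of 7.22. A PML/RARA peak of fold 9.59 lay at the upper-coordinate end of CHD3 itself, with its summit 347 bases beyond the gene and an end of RNF227 within 1 kb, and another at RNF227 had a fold of 6.48. A peak pair at the shared ends of TRAPPC1, a vesicle tethering gene, and CNTROB, a centriole gene, had a PPARα fold of 4.13 and a PML/RARA fold of 17.2 with summits 8 bases apart. That pair sat 19.1 kb from CHD3, close to the limit of the flank.

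CHD4 (chromosome 12, 6570082 to 6607379), the main Mi-2 ATPase of most cells, had no PPARα peak in its body. A broad PML/RARA peak of 1231 bases, the widest of the family, covered its annotated start site (6606362 to 6607592, fold 6.11, −log10 q 24.2), and another of fold 6.11 lay 1103 bases beyond the gene by its summit, both over the noncoding gene LOC124902867. At the other end of CHD4 a low PML/RARA peak had a fold of 5.10. The high peak pair of this locus was 6.85 kb beyond the gene by its PPARα summit, at an end of the noncoding gene LOC105369631. There the PPARα fold was 7.92 (6614006 to 6614440) and the PML/RARA fold 20.1 (6613814 to 6614486), with a PML/RARA peak of fold 2.54 beside them. On the far side, PML/RARA peaks without PPARα had folds of 16.97 near the ends of IFFO1 and NOP2, an rRNA methyltransferase gene, 15.9 near the ends of NOP2 and CHD4-AS1, and 7.32 and 9.26 inside IFFO1.

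CHD5 (chromosome 1, 6101787 to 6180321), which is expressed mainly in neurons and testis, had no peak of either antibody within 1 kb of an end and no PPARα peak in its locus. Its body held 9 PML/RARA peaks, the most of the family, or 11.5 per 100 kb. Their folds ran from 3.56 to 11.8, and 4 of them lay between 69190 and 70892 bases from the lower-coordinate end by summit. The tenth peak of the locus, with a fold of 26.8, lay 19.1 kb away at an end of RPL22, a ribosomal protein gene, without a PPARα peak.

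CHD6 (chromosome 20, 41402083 to 41618377), a remodeller linked to oxidative stress responses, had few peaks for its 216.3 kb. At its upper-coordinate end the PPARα fold was 5.72 with a −log10 q of 4.76 (41618114 to 41618426) and the PML/RARA fold 19.8 (41618391 to 41618786), and these peaks shared 36 bases, with summits 282 bases apart. Inside the gene 2 PML/RARA peaks had folds of 6.36 and 6.43. CHD6 had 0.462 PPARα and 0.925 PML/RARA peaks per 100 kb of gene body, the lowest PML/RARA density of the family.

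CHD8, a repressor of β-catenin target genes linked to autism, spans chromosome 14 from 21385199 to 21456123 on the minus strand. It was the only member with PPARα peaks at both ends, and all 3 of its PPARα peaks overlapped PML/RARA. At the upper-coordinate end the PPARα fold was 6.07 (21456113 to 21456484) and the PML/RARA fold 27.6 (21455988 to 21456569), with summits 11 bases apart. That PML/RARA peak ranked 333rd of 11553 genes by end-peak fold, the best rank of the family, and overlapped the noncoding gene LOC124903283. At the start site of the promoter table, inside the annotated gene, the folds were 5.34 and 20.6, and both peaks covered the whole window printed above. At the lower-coordinate end, beside an end of SUPT16H, which encodes a subunit of the FACT histone chaperone, they were 6.96 (21384034 to 21384720) and 9.09, and PML/RARA peaks of folds 10.6 and 4.48 lay nearby without PPARα.

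CHD9 (chromosome 16, 53054991 to 53327497) had 3 PPARα and 8 PML/RARA peaks, all overlapping the gene itself. Its outermost start site had a PML/RARA peak of fold 7.29 without PPARα. At the second start site, with a PPARα summit 75.8 kb into the gene, the PPARα fold was 5.18 (53130604 to 53131003) and the PML/RARA fold 19.1 (53130404 to 53131095), with summits 104 bases apart. Away from any listed start, 44.3 kb into the gene, a PPARα peak of fold 7.47 (53098935 to 53099543) spanned a gap between 2 PML/RARA peaks of folds 25.4 and 5.86. The first of these had the highest −log10 q of the family, 276.9. PML/RARA peaks without PPARα elsewhere in the gene had folds of 5.34, 9.71 and 5.71. Near start sites 3 and 4 the PPARα fold was 3.44 with a −log10 q of 1.79, close to the lowest value in that list (1.32), and the PML/RARA fold 9.19.

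CHD7 (chromosome 8, 60678740 to 60868028), the gene mutated in CHARGE syndrome, had no PPARα peak in its locus. Its PML/RARA peak at the lower-coordinate end stood at 12.5-fold (−log10 q 24.4). Its other PML/RARA peaks lay inside the gene (5.71) and 18.0 kb outside (6.43). The nearest PPARα peak outside was 26.1 kb from the gene, with a fold of 6.12, just past the limit of the locus. At CHD8, too, a pair lay just outside, at 20.6 kb for PPARα (8.12) and 20.7 kb for PML/RARA (31.96).

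Ordered by the fold of the PPARα end peak, CHD1 (18.3) was followed by CHD8 (6.96), CHD6 (5.72) and CHD2 (4.88). The median over all 6448 genes with such a peak was 7.06, so the other 3 lay below it. By PML/RARA end peak the order was CHD8 (27.6), CHD6 (19.8), CHD1 (14.9), CHD7 (12.5), CHD9 (7.29), CHD3 (6.58), CHD4 (6.11) and CHD2 (5.48), against a median of 14.2 over 11553 genes. Each gene's peak here is its end peak of highest −log10 q, and CHD3 has another of fold 9.59, which would place it above CHD9. The CHD8 values come from opposite ends of the gene. Its PPARα peak in this order lies outside the gene beside an end of SUPT16H, and at the other end the PPARα fold was 6.07. With 1 list per antibody there is no spread by which neighbours in either order could be told apart.

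In most overlapping pairs, in the CHD loci as in the whole lists, the PML/RARA peak stood higher in its own list than the PPARα peak did in its own. The 14 CHD pairs had a median PPARα fold of 5.89 and a median PML/RARA fold of 19.4, against 6.53 and 15.4 over all 8845 pairs. CHD1 was 1 of 2 pairs whose PPARα peak stood higher in its own list than its partner did (top 0.224% against 17.8%). In the other, the lower-coordinate end of CHD8, both stood at the top 39.5% to 3 digits. Among all pairs 20.7% had the PPARα peak standing higher. Because the PML/RARA list is longer and shared peaks stand high in it, these positions describe the lists and not binding strength.

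**Figure D4:**
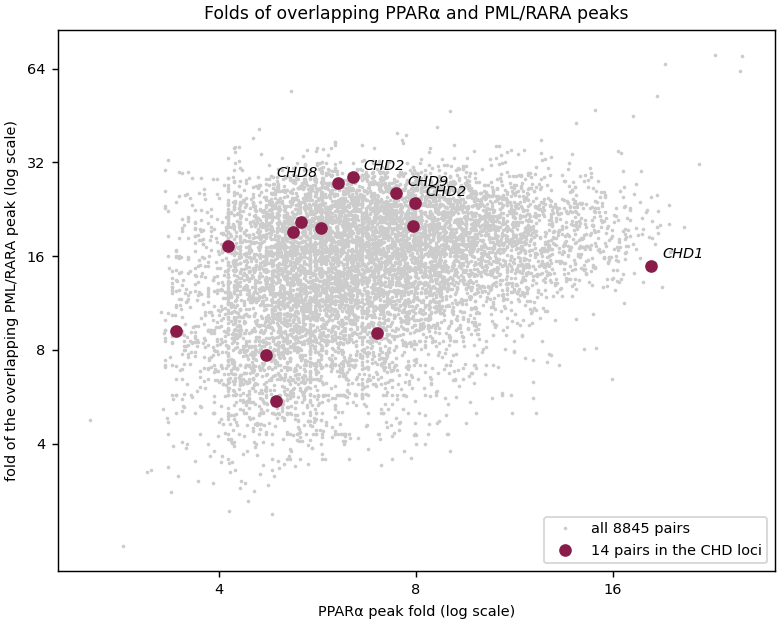
PPARα fold (horizontal) against the fold of the PML/RARA peak sharing most bases with it (vertical), both on log scales, for all 8845 overlapping pairs (grey) and the 14 pairs in the CHD loci (dark). The folds come from separate lists without a common scale. CHD1 (18.3 and 14.9) lies at the right edge, and the other CHD pairs have PPARα folds of 3.44 to 7.96.

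By gene ends, other remodeller genes taken as 1 group had PPARα peaks at a larger share than the 4 of 9 CHD genes. Over 78 genes of NuRD partners, SWI/SNF, ISWI, INO80 and SWR1, and other SNF2 ATPases, PPARα peaks lay at 52 (66.7%) and PML/RARA peaks at 72 (92.3%), and all 52 had both. Over all protein-coding genes the shares were 32.3% and 57.8%. The PPARα share was highest in the INO80 and SWR1 genes (90%) and the other SNF2 ATPases (80%). It was nearer to the CHD share of 44.4% in the ISWI (45.5%), NuRD partner (50%) and SWI/SNF genes (55%). For PML/RARA the CHD share of 8 of 9 lay above that of the ISWI genes and below those of the other lists. The NuRD partners had PPARα at 6 of 12, with the lowest q values at MTA2 (fold 12.8), RBBP4 (14.3) and GATAD2A (13.0). SWI/SNF genes had it at 11 of 20, lowest in q at SMARCD2 (10.4), ACTL6A (10.2) and SMARCC1 (7.60), and ISWI genes at 5 of 11, lowest in q at SMARCA5 (12.1), POLE3 (13.6) and BAZ1B (10.9).

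INO80 and SWR1 genes had PPARα at 18 of 20, lowest in q at SRCAP (9.91), ACTR5 (14.6) and RUVBL2 (12.96), and the other SNF2 ATPases at 12 of 15, lowest in q at ZRANB3 (14.2), TTF2 (11.5) and SMARCAD1 (13.6). PML/RARA peaks lay at 11 of 12, 19 of 20, 7 of 11, 20 of 20 and 15 of 15 genes of these lists in the order given. None of the 52 genes had a PPARα fold above that of CHD1, and ACTR5 (14.6) came closest. The family was chosen for that CHD1 peak, so its place above these genes is no separate result. The NuRD partners were split, 6 with and 6 without a PPARα end peak, and none of the 3 Mi-2 ATPase genes had one, though CHD3 had a PPARα peak within 1 kb of a start site. The shares rest on few genes, and these lists were not tested against other genes. They hold for gene ends only. By start sites 5 of 6 CHD genes had a PPARα peak, and start-site counts of the other lists are not given here.

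**Figure D5:**
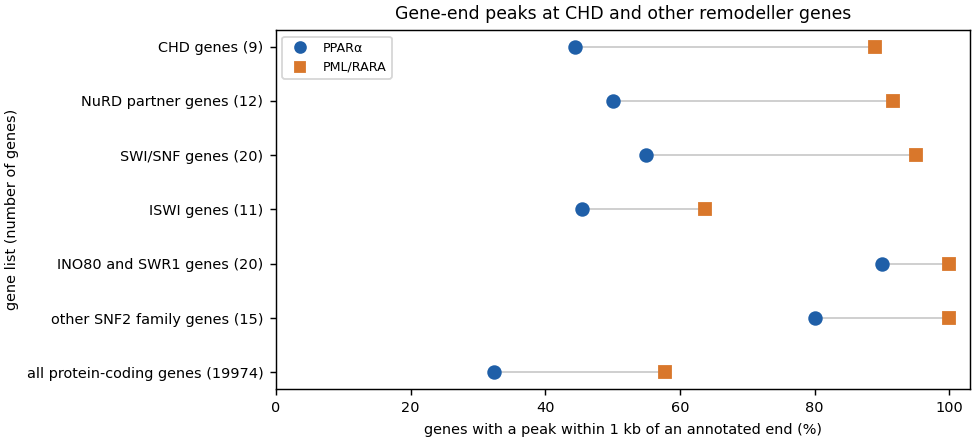
Share of genes (%) with a peak within 1 kb of an annotated end, for PPARα (blue circles) and PML/RARA (orange squares), in the CHD family, 5 other remodeller lists and all protein-coding genes, with the number of genes in brackets. The CHD family stands at 4 of 9 and 8 of 9 genes, and all protein-coding genes at 32.3% and 57.8%.

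As a check of the cells, promyelocyte genes had PML/RARA end peaks at 6 of 9 and a PPARα end peak at 1 of 9 (MPO), where all genes had 57.8% and 32.3%. Lymphoid genes had 3 of 6 and 1 of 6 (CD8A), and erythroid genes (4) and liver and neuron genes (6) had none. The PML/RARA counts of promyelocyte and lymphoid genes are both near the share of all genes, and a peak marks antibody signal and not expression, so this check does not tell the cell type.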

How the data were processed

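CUT&Tag was run in NB4 cells in 4 libraries. Per the submitters' processing notes, reads were placed on hg38, and Bowtie2 2.2.9, SAMtools, MACS 1.4.2 and bedtools are named without roles, settings or order. A layout with q values belongs to newer MACS versions than the one named, and which version, control and settings gave the folds and q values is not settled. Per the narrowPeak layout of the deposited lists, each peak has a fold, a linear ratio over background, a −log10 p and a −log10 q, which are the authors' values, as are the whole-number score and the summit offset. The use of the IgG libraries, masking and duplicate removal are not given in the sources used here. Folds of the lists share no common scale.

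Autosomal and X-linked peaks were used, leaving out 10 PPARα and 33 PML/RARA peaks. Genes were those of the RefSeq table of GRCh38.p14 (59792 genes, 19974 protein-coding ones analysed), which has no exons, so exons, introns and UTRs were not separated. Start sites and strands came from the RefSeq promoter table. End peaks are those reaching within 1 kb of an annotated gene end, and per gene the one of highest −log10 q is given. Shared peaks had at least 1 base in common. No test was run: with 1 list per antibody the comparisons are counts beside the same counts over all genes or peaks. Interval code was tested on simulated peaks. Python 3.11.15, pandas 2.3.3, NumPy 2.4.6, SciPy 1.17.1 and Matplotlib 3.10.9 were used. The members, gene lists, motifs and the rule for named genes (all members, genes whose ends lie at a named peak, the 3 genes per list with the highest PPARα −log10 q, and the 3 genes closest to CHD1 in log2 folds) were chosen with earlier results of these data known. Noncoding genes at those peaks, and genes that hold a peak away from their ends, were named after their values were seen. The alternatives were stricter lists, a shortened PML/RARA list, other flanks and windows, and other overlap rules.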

Additional observations from a re-analysis of the deposited data

How the results depend on the processing

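Of 46 alternative values, 38 stayed within 1.5 times the count given, or within the interval of the share given, and 8 did not. Some of the 38 could not move, because counts of PPARα peaks alone do not depend on a shortened PML/RARA list. Counts by start sites were compared as counts although only 6 of the 9 genes have one: for PPARα, and for both antibodies, 5 of 6 is 83.3%, against 44.4% for 4 of 9 at gene ends. With peaks of −log10 q of at least 5, the PPARα peaks in the CHD loci numbered 8 and not 16, and the genes with a PPARα end peak, and with both, numbered 2 and not 4: CHD1 and CHD8 passed, CHD2 and CHD6 did not. When the PML/RARA list was cut by q to the length of the other, its peaks in the loci numbered 15, its genes 3 (CHD1, CHD6 and CHD8), and the share overlapping PPARα was 66.7%. With that cut 62.5% of PPARα peaks (10 of 16) overlapped PML/RARA, inside the wide interval of 61.7 to 98.4 and so among the 38. Shares of all genes or peaks under the q threshold and the cut are not given here. Gene bodies without flanks held 37 PML/RARA peaks. With summits within 200 bases as the rule, 56.25% of PPARα peaks were shared. Of the overlapping PPARα peaks 9 of 14 met that rule, against 61.6% over the whole list. No paired analysis was possible because each antibody has 1 list. Low peaks repeat the same values: the fold of 4.28 and −log10 q of 2.91 inside CHD2 occur together at 1019 PML/RARA peaks, and the PPARα values at the third CHD9 start site at 69 peaks, so folds of low peaks do not rank them finely.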
